A study of Caenorhabditis elegans with 2 samples.

Results

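The genes described here are the molecular chaperone genes of Caenorhabditis elegans, set against binding sites of the transcription factor BLMP-1. They were chosen by name: every protein-coding gene of the Ensembl WBcel235 annotation called dnj-, hsp- or cct- plus a number, and daf-21, which that annotation calls hsp-90. This gave 59 of 19973 nuclear protein-coding genes, namely 29 dnj genes, 22 hsp genes with daf-21 among them, and 8 cct genes. The family was proposed with results of these same data known, so the counts below are descriptions and no test was made on them.

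Chromatin from whole L2 hermaphrodites was sonicated, BLMP-1 was immunoprecipitated, and the recovered DNA was sequenced (ChIP-seq). All animals were of the single transgenic line OP109, which carries the unc-119(ed3) allele on chromosome III and the insertion wgIs109, a source of BLMP-1 with GFP and FLAG at its C-terminus. There were 2 biological replicates of this 1 group, called replicates 2 and 3 by the submitters, and nothing in the design varied genotype, stage or temperature. Because whole animals were used, the tissue in which a site was occupied cannot be told apart, and the lists hold no expression values.

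Chaperones bind unfolded proteins and help them reach or regain their shape. Hsp70 proteins hold and release short exposed stretches of a client with the help of J-domain proteins (the DnaJ family, dnj in the worm), which deliver clients and start the Hsp70 ATPase. Hsp90 acts later on partly folded clients, the ring-shaped chaperonins CCT (cytosol) and Hsp60 (mitochondria) enclose a client, and small heat shock proteins of the alpha-crystallin family hold clients without ATP. Many of these genes are switched on by heat through the factor HSF-1, which binds the heat shock element, while others are made in all cells at all times. BLMP-1 is the worm homologue of the mammalian zinc finger factor Blimp-1 (PRDM1) and is known for its part in epidermal development and larval timing.

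Each deposited list gives peaks with a summit, the base of highest enrichment, and a signal, the peak caller's own measure of enrichment on a scale that the sources do not state. The thresholded list is the output of the authors' reproducibility step, with 3031 nuclear and 29 mitochondrial peaks. These are the strongest peaks of the pooled replicates, with signals of at least 27.1, so membership followed the pooled signal. The relaxed lists, which contain background by construction, hold 30000 peaks for the pooled replicates, 19553 for replicate 2 and 25142 for replicate 3. Signals are compared within a list only, and ranks count nuclear peaks from the strongest. A gene was counted when a summit lay between 1000 bp upstream and 200 bp downstream of the start of any of its transcripts, here called the promoter window. Read depth is unknown, since no list gives read counts.

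Of the 59 chaperone genes, 17 (28.8%) had a thresholded promoter summit, beside 8.85% of all protein-coding genes (1767 of 19973). By family these were 9 of 29 dnj genes (31.0%), 6 of 22 hsp genes with daf-21 (27.3%) and 2 of 8 cct genes (25%). Many of these summits are shared with a neighbouring gene: counted for the gene with the nearest start alone, 8 chaperone genes had one (13.6%, beside 7.07% of all genes), made up of 6 dnj, 2 hsp (9.09% of that family) and 0 cct genes. The hsp family was also divided by protein class, a split made with the results known. Of the 9 genes for the large heat shock proteins (Hsp60, Hsp70, Hsp90 and Hsp110 types) 6 had a thresholded summit (66.7%), or 2 by the nearest start (22.2%). Of the 13 genes for small heat shock proteins 0 had one, a count of few genes to set beside the 8.85% of all genes, and 4 of the 13 have promoter windows that are nearly all repeated sequence.

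**Figure D1:**
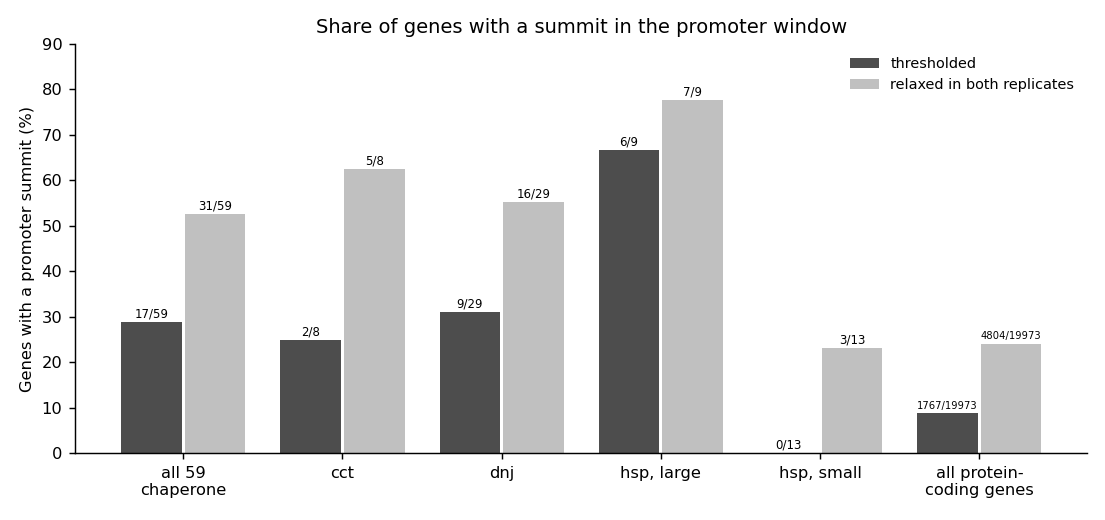
Percentage of genes with at least 1 summit in the promoter window (y axis) for the chaperone genes, their families and, at the right, all protein-coding genes. Dark bars show the thresholded list and light bars relaxed summits in both replicates; numbers over the bars give genes with a summit over all genes, 17 of 59 chaperone genes and 1767 of 19973 genes for the thresholded list.

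The strongest chaperone promoter summits lay at large heat shock protein genes. The summit base with 50 bases on each side is shown for 4 of these genes, on the gene's strand of the WBcel235 (ce11) sequence from RefSeq, because they are the strongest sites in the family and differ in the words they hold. Capitals mark a heat shock element (hsp-110) or the word GAGAGAGA read on the other strand (hsp-1), and lower case alone means that none of the searched words was found.
hsp-110, chrIII:8447124-8447224, minus strand: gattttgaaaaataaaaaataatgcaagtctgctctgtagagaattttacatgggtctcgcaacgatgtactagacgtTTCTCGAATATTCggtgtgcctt
daf-21, chrV:14685708-14685808, plus strand: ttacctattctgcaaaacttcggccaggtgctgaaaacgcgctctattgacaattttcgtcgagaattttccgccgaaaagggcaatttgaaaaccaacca
hsp-60, chrIII:1619126-1619226, plus strand: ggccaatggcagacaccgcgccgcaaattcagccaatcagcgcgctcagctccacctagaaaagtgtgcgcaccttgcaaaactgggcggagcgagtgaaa
hsp-1, chrIV:17278514-17278614, plus strand: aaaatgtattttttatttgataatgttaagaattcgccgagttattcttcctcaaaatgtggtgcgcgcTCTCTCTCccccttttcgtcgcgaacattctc

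hsp-110 (WBGene00016250, chromosome III, 8443910 to 8446909, minus strand) encodes the Hsp110 protein, which acts with Hsp70 as its nucleotide exchange factor. Its summit had a thresholded signal of 100.7 and ranked 301 of the nuclear peaks, 265 bp upstream of the start. The signal was 48.5 in replicate 2 (rank 227) and 50.9 in replicate 3 (rank 456), and the replicates placed the summit 1 bp apart. The same summit lay 179 bp upstream of rpn-3, a proteasome subunit gene that runs the other way. Sites of this kind, between a pair of genes that start back to back, cannot be assigned to either gene from these lists.

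daf-21 (WBGene00000915, chromosome V, 14684918 to 14688545, plus strand) is the worm gene for cytosolic Hsp90. Its summit had a signal of 99.4 (rank 322), with 43.6 in replicate 2 (rank 299) and 60.6 in replicate 3 (rank 314). This summit was not at the first start of the gene: it lay in an intron of daf-21, 402 bp upstream of a start used by shorter annotated transcripts. It also lay 273 bp upstream of C47E8.4, a FAM50 homologue on the other strand. When the outer end of the gene alone counted as its start, daf-21 had no thresholded promoter summit; a relaxed pooled summit with a signal of 3.23 lay 175 bp upstream of that end.

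hsp-60 (WBGene00002025, chromosome III, 1619742 to 1625803, plus strand) encodes the mitochondrial chaperonin ring, a standard marker of the mitochondrial unfolded protein response. Its summit had a signal of 86.4 (rank 442), 566 bp upstream, with 37.1 in replicate 2 (rank 424) and 47.4 in replicate 3 (rank 534). The other gene at this summit was Y22D7AL.10, 247 bp away on the opposite strand. RefSeq describes its product as the mitochondrial 10 kDa heat shock protein, the lid of the Hsp60 chamber, so 1 summit lay between the genes for both components of the mitochondrial chaperonin. With a window of 500 bp upstream hsp-60 was lost.

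hsp-1 (WBGene00002005, chromosome IV, 17278959 to 17281330, plus strand) encodes the constitutive cytosolic Hsp70. Its summit lay 395 bp upstream with a signal of 79.3 (rank 521), and no other protein-coding gene had it in its window. It stood higher in replicate 2 (signal 42.0, rank 327) than in replicate 3 (signal 35.2, rank 982).

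The organelle Hsp70 genes had weaker summits. hsp-3 (WBGene00002007, chromosome X, 6089028 to 6092124, minus strand) encodes BiP, the Hsp70 of the endoplasmic reticulum (ER), and was the only chaperone gene with more than 1 thresholded promoter summit, against 97 of the 1767 genes with a summit. The stronger lay 9 bp upstream of the start (signal 65.7, rank 758; replicate 2, 31.6, rank 593; replicate 3, 32.9, rank 1112). The other lay 550 bp upstream (signal 61.6, rank 873; replicate 2, 32.0, rank 582; replicate 3, 27.8, rank 1466) and was shared with C15H9.5, 626 bp away. hsp-6 (WBGene00002010, chromosome V, 4824124 to 4826760, minus strand) encodes mitochondrial Hsp70. Its summit had a signal of 37.4 (rank 1946), 432 bp upstream, with 13.2 in replicate 2 (rank 2457) and 23.01 in replicate 3 (rank 1940), and lay 168 bp upstream of C37H5.5, a nucleolar complex protein homologue.

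The 3 large hsp genes without a thresholded summit were hsp-4, hsp-70 and hsp-75. hsp-4 encodes a BiP protein closely related to HSP-3 and is known for its induction by ER stress. It had a relaxed pooled summit 51 bp upstream with a signal of 13.1, and relaxed signals of 6.08 in replicate 2 and 7.16 in replicate 3, so the BiP genes stood on different sides of the threshold. hsp-70, a heat-induced cytosolic Hsp70, and hsp-75, of the mitochondrial Hsp90 type, had no promoter summit in any of the 4 lists.

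**Figure D2:**
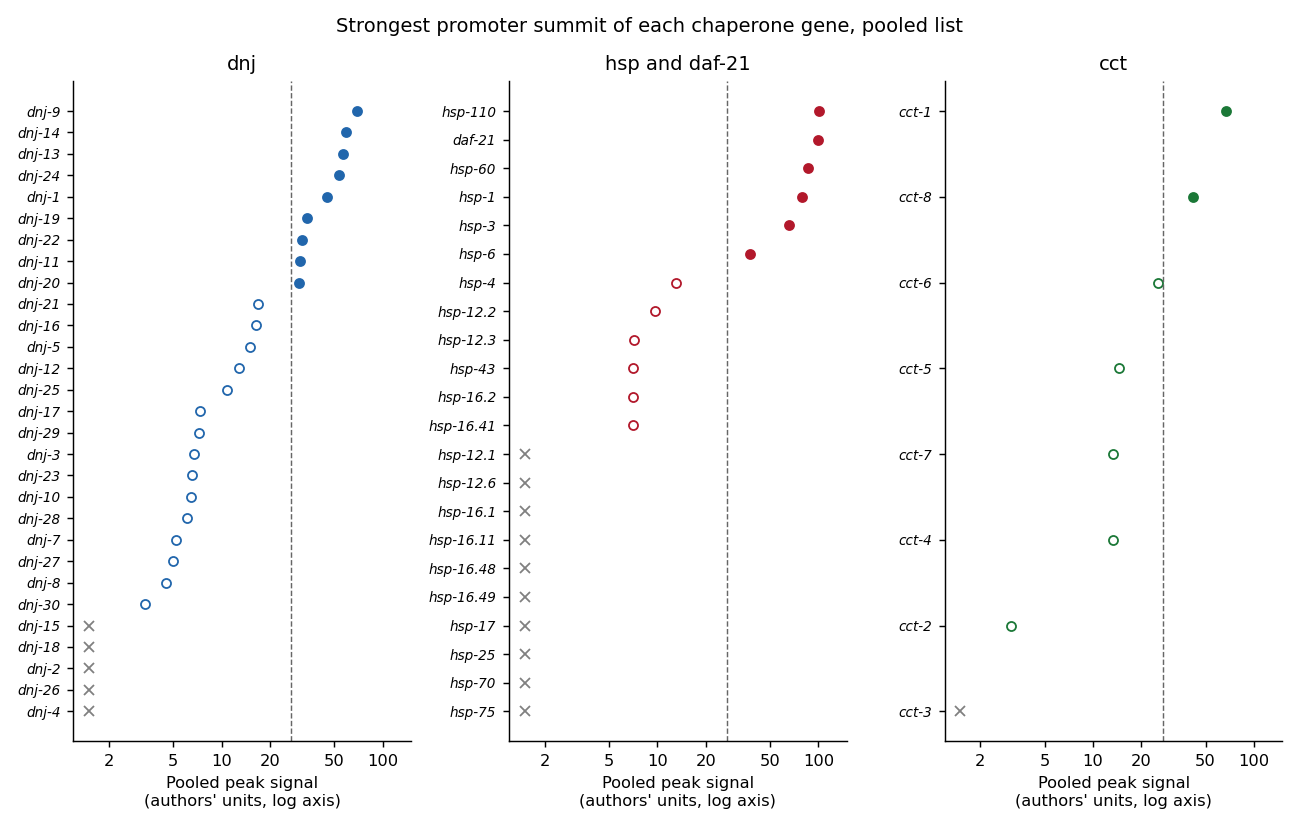
Pooled signal (x axis, authors' units, log scale) of the strongest promoter summit of each of the 59 chaperone genes, ordered within the dnj, hsp with daf-21, and cct families. Filled points are in the thresholded list, open points only in the relaxed pooled list, crosses mark genes with no pooled promoter summit and carry no value, and the dashed line is the lowest thresholded signal of 27.1; the 4 strongest genes are hsp-110, daf-21, hsp-60 and hsp-1.

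The 13 small heat shock protein genes were without a thresholded promoter summit, and 7 of them had none in any list. In the relaxed pooled list 5 of 13 had one (38.5%), near the 40.8% of all genes, and 3 of 13 had one in both replicates (23.1%), near the 24.1% of all genes. With the replicate summits required to lie within 100 bp of each other, 1 of 13 had a pair (hsp-43, 7.69%), beside 17.4% of all genes. The highest pooled signal among them was 9.65, at hsp-12.2, 162 bp downstream of the start. Neither replicate had a summit there: replicate 2 had none in the window, and the only one in replicate 3 (signal 3.54) lay 723 bp upstream. hsp-25 had relaxed summits in replicate 2 (signal 5.08) and replicate 3 (signal 12.31) but none in the pooled list.

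The hsp-16 genes, which are silent in unstressed worms and strongly induced by heat, sit on chromosome V in divergent pairs. The intergenic run between hsp-16.2 and hsp-16.41 is shown because it holds a full heat shock element and the searched word AGACGCAG, and no thresholded summit. That word was within 50 bp of 8.05% of the 3031 nuclear thresholded summits, and its share away from summits was not counted. The run is written on the plus strand, and capitals mark the element and, after it, AGACGCAG read on the other strand. A further element starts near the right end of the run and ends 4 bases beyond it.
hsp-16.2 and hsp-16.41, chrV:1804958-1805177, plus strand: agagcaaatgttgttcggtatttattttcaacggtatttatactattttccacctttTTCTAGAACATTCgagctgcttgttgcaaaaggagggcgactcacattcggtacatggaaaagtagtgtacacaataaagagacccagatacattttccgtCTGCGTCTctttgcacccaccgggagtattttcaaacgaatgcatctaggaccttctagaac

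This region had 1 relaxed pooled summit with a signal of 7.02 (rank 13403), in the windows of both genes, and a summit in replicate 3 with a signal of 7.42. In replicate 2 only hsp-16.2 had a summit in its window (signal 3.26). hsp-16.1, hsp-16.11, hsp-16.48 and hsp-16.49 had no summit in any list. The promoter windows of those 4 genes are nearly all repeated sequence. Between 93.1% (hsp-16.11) and 100% (hsp-16.48 and hsp-16.49) of their 50-base words occur again in the genome. The share was 0% for hsp-16.2, hsp-16.41 and hsp-70. The sources do not state how reads that map to several places were treated, and its part in the absence of summits at these 4 genes was not tested.

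Among the J-domain genes 9 of 29 had a thresholded summit, with a median signal of 45.2, against 82.9 for the 6 hsp genes with a summit. The regions shown are those of dnj-13, the gene for a cytosolic DNAJB1-type partner of Hsp70, and of dnj-24 and dnj-22, because each holds a searched word within 50 bp of its summit. They are written on the gene's strand, and capitals mark GAGAGAGA read on the other strand (dnj-13), AAGTGAAA read on the other strand (dnj-24) and GTAAACA (dnj-22).
dnj-13, chrII:11545468-11545568, plus strand: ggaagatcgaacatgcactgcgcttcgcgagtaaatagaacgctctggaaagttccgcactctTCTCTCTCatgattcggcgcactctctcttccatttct
dnj-24, chrIII:5419680-5419780, minus strand: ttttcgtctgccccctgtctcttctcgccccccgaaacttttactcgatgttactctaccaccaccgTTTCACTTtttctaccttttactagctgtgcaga
dnj-22, chrV:8462212-8462312, minus strand: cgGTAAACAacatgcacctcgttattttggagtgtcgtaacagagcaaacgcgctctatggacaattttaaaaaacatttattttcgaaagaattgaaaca

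The strongest J-domain summit was at dnj-9 (WBGene00001027, chromosome II, 4852056 to 4857820), 231 bp upstream, with a signal of 69.6 (rank 672), and 26.5 in replicate 2 (rank 830) and 36.8 in replicate 3 (rank 918). No other protein-coding gene shared it. dnj-14, which encodes the cysteine string protein of synaptic vesicles, had a signal of 59.4 (rank 927) at 376 bp upstream, in a region shared with the neuroligin-like gene glit-1 155 bp away. It was uneven between replicates, with 15.9 in replicate 2 (rank 1915) and 36.8 in replicate 3 (rank 915).

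dnj-13 (WBGene00001031, chromosome II, 11545701 to 11547360) had a signal of 56.6 (rank 1002) at 183 bp upstream, with 19.98 in replicate 2 (rank 1362) and 31.7 in replicate 3 (rank 1180). The F-box gene F54D5.9, 690 bp away, also had it in its window. dnj-24 (WBGene00001042, chromosome III, 5415583 to 5424083) had a signal of 53.5 (rank 1099), with 21.8 in replicate 2 (rank 1181) and 26.8 in replicate 3 (rank 1542). The dnj-24 summit, like that of daf-21, was in an intron of the gene, 165 bp upstream of an internal start. Further thresholded summits lay inside dnj-24 outside its promoter windows, with signals of 58.1 and 36.8.

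The remaining J-domain summits were weaker. dnj-1 had a signal of 45.2 (rank 1474) at 338 bp upstream, with 18.5 in replicate 2 and 25.4 in replicate 3, and shared the summit with B0035.15. dnj-19, a cytosolic DNAJA-type gene, had a signal of 33.8 (rank 2237) at 405 bp upstream, with 17.5 in replicate 2 and 17.7 in replicate 3. That summit was in the 5′ untranslated exon of the nuclear hormone receptor gene nhr-47, 9 bp downstream of its start.

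The last 3 J-domain genes lay close to the threshold. dnj-22 had a signal of 31.8 (rank 2453) at 142 bp upstream, shared with the MAK10 homologue natc-1 97 bp away, with 7.76 in replicate 2 (rank 4852) and 24.7 in replicate 3 (rank 1751). dnj-11, the DNAJC2-type gene, had a signal of 30.7 (rank 2559) at 220 bp upstream, shared with the TraB domain gene F38A5.2, with 11.4 in replicate 2 (rank 3020) and 15.1 in replicate 3 (rank 3496). dnj-20, which encodes the ER J-domain protein of the ERdj3 type, had a signal of 30.1 (rank 2639), with 14.8 in replicate 2 (rank 2113). This summit was in its own intron 408 bp upstream of an internal start. The nearest replicate 3 summit (17.3, rank 2908) lay 166 bp away, and 34 bp from a weaker replicate 2 summit (3.92, rank 10664). Inside dnj-20, as in dnj-24, further thresholded summits lay outside the promoter windows, with signals of 30.07 (rank 2640) and 28.1 (rank 2904). When the outer gene end alone counted as the start, dnj-24 and dnj-20 had no thresholded promoter summit, though weak relaxed summits lay upstream of those ends, with pooled signals of 7.13 at dnj-24 and up to 5.80 at dnj-20.

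Of the 20 J-domain genes without a thresholded summit, 15 had a relaxed pooled summit, and the highest signals were 16.7 at dnj-21 (a TIM14-type subunit of the mitochondrial import motor), 16.3 at dnj-16 and 14.9 at dnj-5. The lowest were 3.34 at dnj-30, 4.51 at dnj-8, 4.99 at dnj-27 (an ERdj5-type reductase) and 5.21 at dnj-7 (P58IPK, an ER J-domain protein). dnj-21 had a summit in replicate 3 (15.3) and none in replicate 2, and dnj-27 had none in either replicate.

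The CCT complex, which folds actin and tubulin, is built from 8 different subunits in equal amounts, and its genes lie on chromosomes II, III, IV and V. The summit regions of the pair with a thresholded summit are shown so that they can be set against the others: neither holds any of the searched words.
cct-1, chrII:8185160-8185260, plus strand: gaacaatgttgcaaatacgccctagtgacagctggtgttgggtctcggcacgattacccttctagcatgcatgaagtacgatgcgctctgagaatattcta
cct-8, chrIV:1094289-1094389, minus strand: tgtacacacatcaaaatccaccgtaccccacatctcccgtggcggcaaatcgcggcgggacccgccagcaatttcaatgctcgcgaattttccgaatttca

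cct-1 (WBGene00000377, chromosome II, 8185443 to 8187601, plus strand) had a signal of 67.0 (rank 726) at 233 bp upstream, with 26.3 in replicate 2 (rank 841) and 37.5 in replicate 3 (rank 871). The summit lay 187 bp upstream of mig-5, the dishevelled gene of the Wnt pathway, on the other strand. cct-8 (WBGene00021934, chromosome IV, 1087108 to 1093920, minus strand) had a signal of 41.6 (rank 1669) at 419 bp upstream, with 17.001 in replicate 2 (rank 1748) and 22.4 in replicate 3 (rank 2013). It shared the summit with the thioredoxin domain gene Y55F3AR.2, 202 bp away.

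The other 6 cct genes had weaker summits or none. cct-6 had a pooled signal of 25.2 (rank 3296) at 292 bp upstream, just below the threshold, and differed between replicates, with 3.21 in replicate 2 (rank 13176) and 21.5 in replicate 3 (rank 2147). cct-5 (14.4), cct-7 (13.2) and cct-4 (13.2) followed, and cct-2 had 3.12 in the pooled list and no summit in either replicate. cct-3 had no promoter summit in any list. The replicates split cct-7 the other way from cct-6, with 12.04 in replicate 2 (rank 2801) and no summit in replicate 3, so that the strongest peaks of replicate 3 alone, as many as the thresholded list has, held cct-1, cct-6 and cct-8, and those of replicate 2 alone held cct-1, cct-7 and cct-8.

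Around the threshold, the chaperone gene just inside was dnj-20 (signal 30.1) and the one just outside was cct-6 (25.2). Relaxed summits were common in the family: 43 of 59 genes (72.9%) had one in the pooled list, beside 40.8% of all genes, 36 (61.0%) in replicate 2, beside 32.5%, and 38 (64.4%) in replicate 3, beside 37.9%. In both replicates 31 had one (52.5%), beside 24.1%, made up of 16 dnj, 10 hsp and 5 cct genes. A further 5 genes had a summit in replicate 2 alone and 7 in replicate 3 alone, 16 had none in either, and 14 had none in any list.

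The 17 genes with a thresholded summit had strongest summits with a median signal of 56.6, beside 44.3 for all 1767 genes. All 17 of these summits lay upstream of the start, beside 1653 of 1767, and the median distance was 338 bp, beside 244 bp. Between 100 and 600 bp upstream, a band chosen after the values were seen, lay 16 of 17 (94.1%), beside 1103 of 1767 (62.4%); the exception was hsp-3. For 12 of the 17 (70.6%) the strongest summit was also in the window of another protein-coding gene, beside 685 of 1767 (38.8%), and in each of these 12 cases that gene was divergent. Of the 18 distinct chaperone summits, 10 lay between annotated genes (55.6%), beside 1010 of the 1515 thresholded summits in any promoter window (66.7%). The other 8 lay within genes: in introns of daf-21, dnj-20 and dnj-24, in exons of annotated noncoding RNAs next to dnj-1, dnj-13, dnj-14 and hsp-6, and in the nhr-47 exon at dnj-19. The dnj-13 summit was also in an intron of the protein-coding gene dhgd-1.

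**Figure D3:**
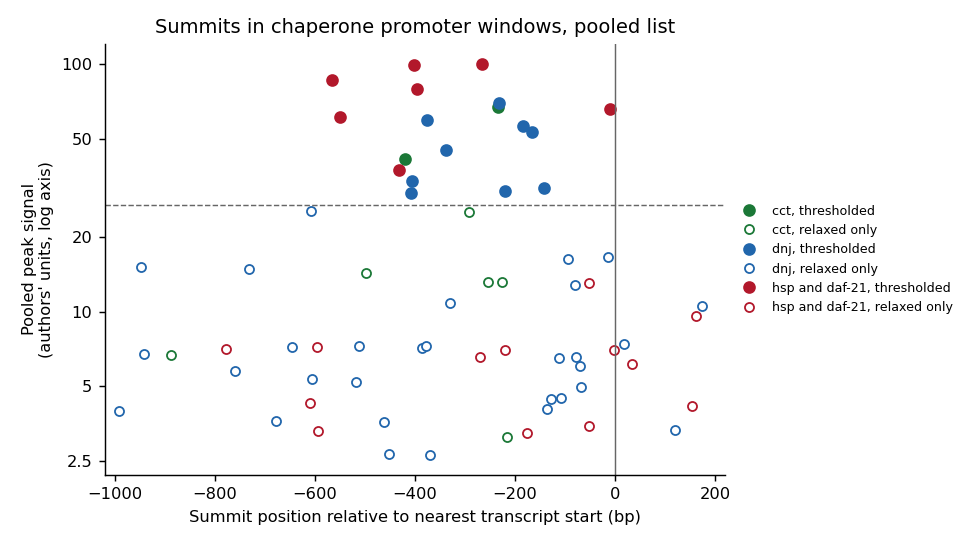
Position of every pooled promoter summit of the chaperone genes relative to the nearest transcript start (x axis, bp, negative upstream) against its pooled signal (y axis, authors' units, log scale), coloured by family. Filled points are thresholded and open points relaxed only; the filled points lie between 566 and 9 bp upstream, while open points spread over the whole window.

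The thresholded list came from a reproducibility step, but its members are the strongest pooled peaks, so a single member need not agree between replicates. The pooled signal draws on both replicates. Close replicate summits at strong pooled peaks may thus be partly fixed by that choice, and the values here describe them. For 17 of the 18 thresholded chaperone summits (94.4%) each replicate had a summit within 100 bp, beside 1417 of all 1515 thresholded promoter summits (93.5%); the exception was dnj-20, where the replicate summits were 166 bp apart. Over those 17 the median gap between replicate summits was 13 bp (1 to 86 bp), beside 27 bp over the 1417. The ranks in the replicates had a Spearman rho of 0.77, beside 0.52, given as a description because all sites come from the same libraries. In each replicate 16 of these 17 ranked no lower than the number of peaks in the thresholded list; the exception was dnj-22 in replicate 2 (rank 4852) and dnj-11 in replicate 3 (rank 3496). Taken instead over 1 pair of replicate summits for each gene, chosen by rank, rho was 0.82 for the 17 genes with a thresholded summit and -0.042 for the 10 genes without one that had a pair within 100 bp. The pair used for dnj-20 (ranks 10664 and 2908) was not at its thresholded summit.

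**Figure D4:**
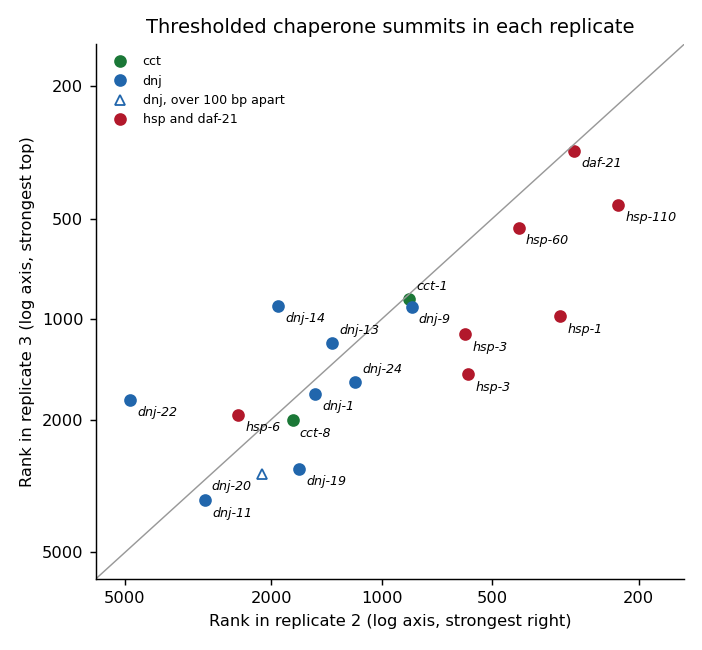
Rank of the nearest relaxed peak to each of the 18 thresholded chaperone summits in replicate 2 (x axis, log scale, strongest at the right) and replicate 3 (y axis, log scale, strongest at the top), with the line of equal rank. Circles are summits within 100 bp in both replicates and the open triangle is dnj-20; daf-21 and hsp-110 are near the top right corner and dnj-22 stands farthest to the left, at rank 4852 in replicate 2.

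Short words were searched on both strands within 50 bp of the 18 chaperone summits, and counted beside the 1515 thresholded summits that lie in any promoter window. AGTGAAAG and AGCGAAAG, the forms of the core bound by mammalian Blimp-1, were at 0 of 18 chaperone summits, beside 4.69% and 1.32%. AAGTGAAA, which shares 7 bases with the first of these, was at dnj-24 alone (5.56%, beside 7.72%). AGACGCAG, a word chosen with earlier results of these data known, was at the start-proximal summit of hsp-3 alone (5.56%, beside 8.65%). GAGAGAGA was at hsp-1 and dnj-13 (11.1%, beside 7.39%). TGACGTGG, an element of the ER stress response, was at none (beside 0.462%), and GTAAACA, the FoxO-type word, at dnj-22 alone (5.56%, beside 1.39%). At 12 of the 18 summits none of the searched words was found, and the median GC content was 48.5%, beside 44.6%. A word is a match of letters and not a site shown to be bound.

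The heat shock element was taken as 3 alternating GAA and TTC blocks with 2 free bases between blocks. Within 50 bp of a summit it was found at hsp-110 alone, centred 34 bp from the summit (5.56%, beside 0.462%). In promoters, taken as 250 bp before and 50 bp after each transcript start, it was found at 12 of 59 chaperone genes (20.3%), beside 506 of 19973 genes (2.53%): daf-21, dnj-12, hsp-1, hsp-110, hsp-3, hsp-70 and the 6 hsp-16 genes. Of these 12, 4 had a thresholded BLMP-1 summit (33.3%), beside 58 of the 506 genes with the element (11.5%). The element was in 4 of the 17 chaperone genes with a summit (23.5%) and in 8 of the 42 without (19.0%). The 6 hsp-16 genes are among those 8. They lie in divergent pairs, and both genes of a pair were counted with the same elements, so the 12 genes do not stand for 12 separate regions. By family it was in 11 of 22 hsp, 1 of 29 dnj and 0 of 8 cct genes, an order that depends on the definition: a shorter element of 2 blocks was in 14 hsp (63.6%), 12 dnj (41.4%) and 7 cct genes (87.5%), beside 38.5% of all genes. Over the whole promoter window of the genes with a thresholded summit, the 3-block element nearest to the summit was 34 bp away at hsp-110, 125 bp at hsp-60, 131 bp at hsp-6, 220 bp at dnj-13 and 257 bp at hsp-1. It was 849 bp away at daf-21, 1703 bp at hsp-3 and 4904 bp at dnj-24, where element and summit lie at different starts.

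Other genes of the folding system were taken as a list of 32 outside the name rule, drawn up with earlier results of these data known. Of these, 17 (53.1%) had a thresholded promoter summit, beside 8.85% of all genes. At pfd-1, pfd-6, enpl-1, pdi-1 and pdi-3 the summit was shared with another gene. Ranks in replicates 2 and 3 were uneven at some, such as enpl-1 (1620 and 6238) and ire-1 (1416 and 5222). In the other direction they were uneven at pdi-3 (5135 and 1814) and pfd-6 (4162 and 2201). They were close at others, such as pfd-5 (185 and 183). HSF-1, the heat shock factor, and its binding protein HSB-1 had none (0 of 2), and sip-1, a further small heat shock protein gene, had none.

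In the ER all 4 listed unfolded protein response genes had a summit: pek-1 (signal 65.3), a kinase of the response, xbp-1 (54.7), its spliced transcription factor, atf-6 (39.5) and ire-1 (29.2), a sensor. Of 7 ER folding genes 5 had one, namely the protein disulphide isomerase genes pdi-2 (67.0), pdi-6 (41.8), pdi-1 (31.2) and pdi-3 (31.0) and enpl-1 (29.4), the ER Hsp90. Of 3 genes of the mitochondrial unfolded protein response 2 had one: dve-1 had the strongest summit of the list (218.7, rank 45, 308 bp downstream of its nearest start) and atfs-1 one of 86.7, while ubl-5 had a relaxed pooled summit of 24.2 and no thresholded one. Both dve-1 and atfs-1 encode transcription factors of the response, whose marker genes hsp-60 and hsp-6 are described above.

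In the cytosol 3 of 9 co-chaperone genes had a summit, with signals of 109.3 at unc-23 and 55.1 at bag-1, both of the BAG family that releases clients from Hsp70, and 33.7 at sti-1, the Hsp70-Hsp90 adaptor. Of the 6 subunits of prefoldin, which hands actin and tubulin to CCT, pfd-5 (125.8), pfd-1 (67.1) and pfd-6 (30.3) had one. As in CCT, a thresholded summit was thus present at some subunit genes of the complex and not at others. This contrast depends on the threshold. In the relaxed pooled list pfd-4 (15.3), pfd-3 (10.1) and pfd-2 (3.06) had a summit, as had all cct genes but cct-3. It also depends on shared windows. The summits of pfd-1, pfd-6, cct-1 and cct-8 were shared, and 0 cct genes had one by the nearest start.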

How the data were processed

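The labels name blmp-1 in the antibody field. BLMP-1 ChIP-seq peak lists of 2 biological replicates of 1 group were used, on ce11, which is the same assembly as WBcel235. Per the deposited file descriptions, relaxed lists were called by the authors for each replicate and the pool against a control library, not analysed here, and a reproducibility step gave the thresholded list. It holds the 3060 strongest pooled peaks. The sources name neither the caller nor its version or threshold. Signal values and −log10 q values are the authors' own; the deposited −log10 q reached a ceiling of 3.98 in the pooled and thresholded lists and was not used for ranking. Depth is unknown, since no list gives counts.

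Genes came from Ensembl release 115 and sequences from RefSeq. Coordinates are 1-based. Windows include both end bases; 3 summits beyond their peak were moved back to its end, and mitochondrial peaks were left out. The promoter steps were tested on simulated data. The members, lists, words and named genes were chosen with earlier results of these data known. Named were all members with a thresholded summit and the genes sharing it, all cct and hsp-16 genes, the main large hsp genes, the 5 strongest and 5 weakest pooled summits of the other members, and listed folding genes with a summit; hsp-12.2, hsp-25, hsp-43, hsp-75, dnj-12 and ubl-5 were added after their values were seen. Alternatives were other windows, starts, peak numbers, overlap rules and word windows, and each replicate alone. Python 3.11.15, NumPy 2.4.6, pandas 2.3.3, SciPy 1.17.1 and matplotlib 3.10.9 were used.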

Additional observations from a re-analysis of the deposited data

How the results depend on the processing

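The count of 17 chaperone genes with a thresholded promoter summit was 16 with 500 bp upstream (without hsp-60), 18 with 2000 bp (with dnj-16), 14 with the outer gene end as the only start, and 17 when the peak interval, not the summit, had to touch the window. With the median signal of the thresholded list as a stricter threshold it was 11 (18.6%, beside 4.38% of all genes), with 5 dnj and 1 cct gene. When a summit counted for the nearest start alone it was 8 (13.6%, beside 7.07%), with 2 hsp genes and 0 cct genes, and the 9 genes lost share their summit with a divergent gene whose start is closer. Leaving out either replicate, with as many of the strongest peaks taken from the other alone, gave 17 to 17 genes in all (28.8%). These were 8 to 8 dnj, 6 to 6 hsp with daf-21 and 3 to 3 cct genes. Of all genes 8.49% had a summit without replicate 2, and 8.59% without replicate 3. Without replicate 2 cct-6 entered and dnj-11 left, and without replicate 3 cct-7 entered and dnj-22 left. Relaxed summits in both replicates were at 23 to 35 genes under 4 alternatives, against 31 (52.5%, beside 24.1% of all genes). They were at 27 with 500 bp upstream (45.8%, beside 18.2%) and at 35 with 2000 bp (59.3%, beside 32.4%). With summits within 100 bp they were at 27 (45.8%, beside 17.4%). With the 10000 strongest peaks of each replicate they were at 23 (39%, beside 15.4%). A heat shock element of 2 blocks was in 33 chaperone promoters (55.9%) beside 38.5% of all. No paired analysis was possible because the samples form 1 group. Unknown depth and relaxed lists that hold background limit what a weak or missing summit shows.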

Other observations

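Outside the promoter windows, 1 of the 42 chaperone genes without a thresholded promoter summit had one within the gene: cct-5 (chromosome III, position 4505167, signal 48.3), 2947 bp from the nearest start (2.38%, beside 1.80% of all genes without a promoter summit). A thresholded summit lay between 1000 and 10000 bp upstream of 13 of the 42 (31.0%), beside 3462 of 18206 such genes in all (19.0%). The nearest to its gene was at dnj-16 (signal 84.2, 1318 bp upstream), followed at the small heat shock protein genes by one 2290 bp from hsp-16.48 (signal 35.3) and one 2648 bp from hsp-25 (signal 50.3). The summit near hsp-16.48 was also the nearest one upstream of hsp-16.11, 4236 bp away. Another summit (signal 62.8) was the nearest for both hsp-16.49 (6101 bp) and hsp-16.1 (8085 bp). The 13 genes therefore do not stand for 13 separate summits. The distances were 6015 bp for hsp-4 (signal 28.8, inside the window of insc-1) and 8418 bp for hsp-70 (signal 52.8). The choice of genes in this paragraph followed their values.

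By chromosome, 0 of the 9 chaperone genes on chromosome I had a thresholded promoter summit, where 10.3% of all genes had one. The counts elsewhere were 4 of 11 on II (beside 8.23% of all genes there), 3 of 11 on III (12.7%), 4 of 9 on IV (7.44%), 4 of 14 on V (6.29%) and 2 of 5 on X (10.7%). The chromosome I genes were 7 dnj genes, hsp-12.1 and hsp-70, a number too small to set 0 apart from that share, and no test was made.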
